A study of Homo sapiens with 6 samples.

Results

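The BCL2 family was described here through 10 of its genes, BCL2, BCL2L1, BCL2L2, MCL1, BCL2L11, PMAIP1, BMF, BIK, BAX and BAK1. They were listed by symbol, with earlier results of these data known. All 10 had a row in the deposited expression table, out of 11911 genes. The RNA came from RS4;11, a human cell line grown from a precursor B-cell acute lymphoblastic leukemia in which KMT2A is fused to AFF1. The asparagine-depleted group held 3 libraries of cells from which asparagine had been withdrawn, with RNA taken 16 hours later, and the other group held 3 libraries of cells with asparagine. The sample titles name no altered gene and no drug. The table's column names begin with Ctrl in both groups, which is not explained. They go on with unt for the group with asparagine and aspg for the depleted group, and aspg could stand for asparaginase. The labels enter 1 asparagine-free medium with 10% dialyzed serum for all 6 samples, and how asparagine was supplied to the cells with asparagine is left unstated. All libraries come from a single cell line, and nothing states that they came from separate cultures, so the p-values measure the spread between libraries, which may be technical.

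Proteins of the BCL2 family decide whether the outer membrane of the mitochondrion is opened, the step that releases cytochrome c and starts the caspases. BAX and BAK1 are the effectors that form the pores. BCL2, BCL-XL (the product of BCL2L1), BCL-w (BCL2L2) and MCL1 are antiapoptotic and hold the effectors in check. The BH3-only proteins, here BIM (BCL2L11), NOXA (PMAIP1), BMF and BIK, share a short BH3 helix that docks into the groove of the antiapoptotic proteins, and NOXA binds mainly MCL1. Lymphoid cells and their leukemias depend strongly on BCL2 and MCL1, and BIM is a main killer of lymphocytes deprived of growth factors. Many of these proteins are controlled after transcription, and several genes make splice forms with opposite action, such as the long and short forms of BCL-X and MCL1, which a table with 1 value per gene cannot separate.

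The deposited values are normalized CPM, reads scaled to a common library size, and correspond to 29971364 to 40577308 reads per depleted library and 36611101 to 51127073 reads per library with asparagine. One depleted library, library 1, differed from the other depleted libraries. Its correlation with them across genes, which are not independent replicates, was 0.940 and 0.933, against 0.996 between libraries 2 and 3. It differed along transcript GC content, but the trend lay in libraries 2 and 3. From the lowest to the highest of 5 GC classes, median log2 differences from the mean with asparagine ran from 0.03 to -0.09 in library 1. They ran from 0.81 to -0.86 in library 2 and from 0.86 to -0.89 in library 3. Library 1 correlated with the libraries with asparagine at 0.927 to 0.928, against 0.845 to 0.882 for libraries 2 and 3. As the trend lay in depleted libraries 2 and 3, removing it can also take out part of a difference between the groups. For members and related genes below, calls that changed after removing each library's GC trend or without depleted library 1 are given with those values. Of 8 B-cell precursor markers, 8 had a row, with summed levels of 2746 to 3517 CPM in depleted libraries and 3496 to 3714 CPM with asparagine. Single markers moved apart, as VPREB1, IGLL1, CD79B and DNTT fell by 1.91, 1.86, 0.84 and 0.79 on the log2 scale and PAX5 rose by 0.41 (limma adjusted p = 0.00116, 0.00477, 0.0273, 0.0044 and 0.017), while CD79A, EBF1 and RAG1 did not pass. With the GC trend removed CD79A and RAG1 passed as well, at 0.56 and -0.88 (adjusted p = 4.29e-05 and 1.06e-05). CD79A was uneven, at 0.47, -0.18 and -0.24 in depleted libraries 1, 2 and 3 against the mean with asparagine on the log2 scale. EBF1 was at 0.11, 0.53 and 0.63 in these libraries, and RAG1 at -0.81, -0.24 and -0.19. Of 18 alternative fits, EBF1 passed in 2, and CD79A and RAG1 in 3 each. The table listed 0 of 6 T-cell markers and 2 of 6 myeloid markers, CSF1R and ITGAM, whose summed level was 17.5 to 31.0 CPM in depleted libraries and 32.1 to 33.3 CPM with asparagine. The part of these differences in the results was not tested. In RNA from whole cultures, fewer cells with a transcript and less transcript per cell cannot be told apart.

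The comparison asks which members of the death machinery change their RNA level when these leukemia cells lose asparagine. PMAIP1 changed most, to 4.60-fold its level with asparagine, and the BH3-only gene BMF and the antiapoptotic gene BCL2L2 also rose, by 1.64-fold and 1.50-fold. BCL2L11 and BIK, both BH3-only, fell, to 0.602-fold and 0.569-fold. BCL2 and MCL1, the antiapoptotic genes with the highest levels per length, did not pass the test, and neither did BCL2L1 or the effectors BAX and BAK1. Thus 3 of 10 members were higher and 2 lower by limma on log2(CPM + 1), with Benjamini-Hochberg adjustment over 11892 genes at 0.05. Of all genes tested, 51.3% were called, 25.1% higher and 26.2% lower, so a share of 5 in 10 is near the background. The members' median log2 fold change, depleted minus with asparagine, was -0.20, against 0.01 for all genes. In 5 of 10 members the 2 groups did not overlap, against 61.1% of all genes. Without depleted library 1 the counts were 5 higher and 5 lower, where 81.8% of all genes were called, 40.5% higher and 41.3% lower. With the GC trend removed 3 members were higher and 3 lower, where 69.5% of all genes were called, 35.1% higher and 34.3% lower.

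**Figure D1:**
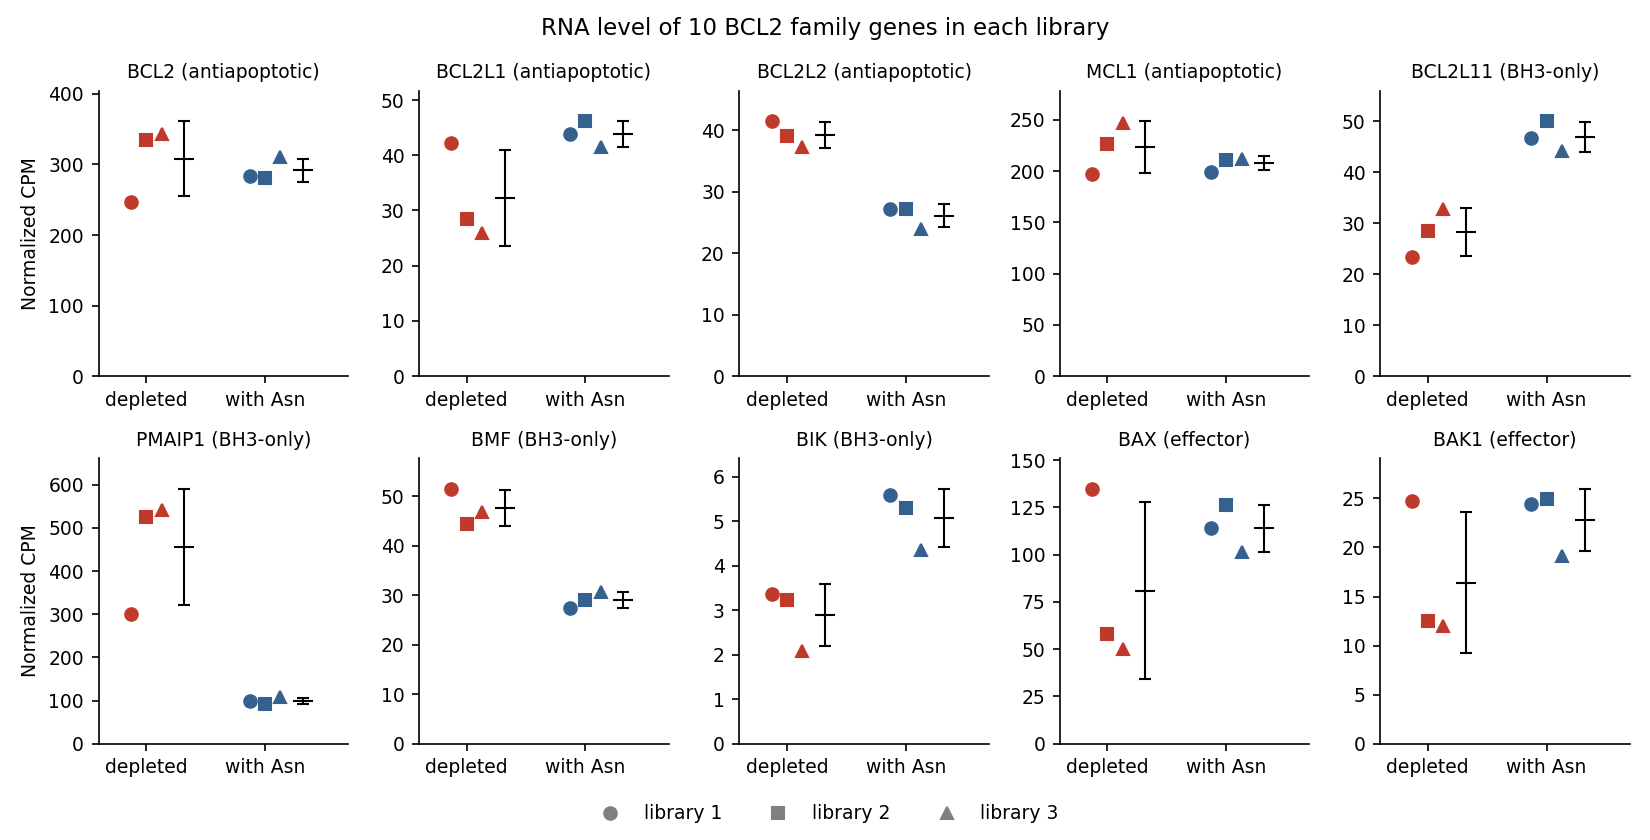
Normalized CPM of the 10 genes in each library, with circles, squares and triangles for libraries 1, 2 and 3, and a bar for the mean and SD (n = 3 per group). The 3 depleted PMAIP1 values lie between 301 and 543 CPM, above the 92.3 to 107 CPM with asparagine, while BAX, BAK1 and BCL2L1 have 1 depleted library apart from the others.

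Among the BH3-only genes, PMAIP1 (chromosome 18, 59899948 to 59904306 on the plus strand of GRCh38) encodes NOXA. Its level was 301, 526 and 543 CPM in depleted libraries 1, 2 and 3, against 97.9, 92.3 and 107 CPM in libraries 1, 2 and 3 with asparagine. The groups did not overlap, and depleted library 1 lay lowest of the depleted. The means were 456 ± 135 CPM in depleted cells and 99.2 ± 7.66 CPM with asparagine (SD, n = 3 each), and the log2 fold change was 2.14 (SE 0.24, limma adjusted p = 0.000846). This lies at percentile 98.8 of the fold changes of all genes. With the GC trend removed the estimate was 1.67 (adjusted p = 1.15e-06), and the 3 depleted libraries stood close together, at 1.56, 1.72 and 1.73 above the mean with asparagine on the log2 scale.

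BMF (chromosome 15, 40087890 to 40108892, minus strand) encodes a BH3-only protein that is held at the cytoskeleton. Its level was 51.6, 44.3 and 46.9 CPM in the depleted libraries and 27.4, 29.1 and 30.6 CPM with asparagine. Every depleted value lay above every value with asparagine, and depleted library 1 was the highest. The increase was 0.69 on the log2 scale (SE 0.13, limma adjusted p = 0.00489), and it was 1.18 with the GC trend removed (adjusted p = 0.000322). Antisense transcripts of BMF-AS1 share 8.46% of its exon length, and without a stated strand setting their reads cannot be told apart.

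BCL2L11 (chromosome 2, 111119378 to 111168447, plus strand), the BIM gene, went the other way. Its level was 23.4, 28.5 and 32.8 CPM in depleted libraries and 46.7, 49.99 and 44.0 CPM with asparagine. The groups did not overlap, and depleted library 1 was the lowest of all 6. On the log2 scale the change was -0.72 (SE 0.16, limma adjusted p = 0.00949), and it was -0.96 with the GC trend removed (adjusted p = 7.68e-05). Without library 2 with asparagine it was -0.68 and the adjusted p was 0.0504. Exons of MIR4435-2HG on the opposite strand overlap 10.9% of its exon length.

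BIK (chromosome 22, 43110748 to 43129712, plus strand) encodes a BH3-only protein of the endoplasmic reticulum and was the member with the fewest reads, 78 to 143 per depleted library and 192 to 218 per library with asparagine. Its level was 3.36, 3.22 and 2.09 CPM in depleted libraries and 5.59, 5.29 and 4.34 CPM with asparagine. The groups did not overlap, and depleted library 3 was the lowest. The log2 fold change was -0.65 (SE 0.18, limma adjusted p = 0.0223), but -0.31 with the GC trend removed (adjusted p = 0.0895). The call was also lost without depleted library 3 (adjusted p = 0.0591), without library 1 with asparagine (adjusted p = 0.0887) and without library 2 with asparagine (adjusted p = 0.0829).

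Sequence around the start sites of the 3 BH3-only genes that kept their direction and passed after the GC correction, and of BAX, is shown so that the motifs of stress-activated and growth-related factors can be read directly. Each is the RefSeq window of 250 bases before to 50 after the start on GRCh38.p14, 5′ to 3′ on the gene's strand, and capitals mark the motif matches found on either strand.
PMAIP1 (chr18:59899746-59900045, plus strand): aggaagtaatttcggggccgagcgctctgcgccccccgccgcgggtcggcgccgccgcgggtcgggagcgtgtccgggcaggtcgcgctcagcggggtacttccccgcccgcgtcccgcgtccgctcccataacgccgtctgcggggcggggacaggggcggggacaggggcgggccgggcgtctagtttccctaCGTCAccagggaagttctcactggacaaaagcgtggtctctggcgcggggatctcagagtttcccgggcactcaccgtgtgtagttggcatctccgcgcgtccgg
BMF, upstream start (chr15:40108830-40109129, minus strand): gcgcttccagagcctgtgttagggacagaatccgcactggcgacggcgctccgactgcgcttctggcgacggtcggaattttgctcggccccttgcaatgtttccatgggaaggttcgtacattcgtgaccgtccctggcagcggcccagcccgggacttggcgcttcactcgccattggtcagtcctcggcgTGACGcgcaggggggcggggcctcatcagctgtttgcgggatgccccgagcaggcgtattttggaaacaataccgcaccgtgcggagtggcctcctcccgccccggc
BCL2L11 (chr2:111120664-111120963, plus strand): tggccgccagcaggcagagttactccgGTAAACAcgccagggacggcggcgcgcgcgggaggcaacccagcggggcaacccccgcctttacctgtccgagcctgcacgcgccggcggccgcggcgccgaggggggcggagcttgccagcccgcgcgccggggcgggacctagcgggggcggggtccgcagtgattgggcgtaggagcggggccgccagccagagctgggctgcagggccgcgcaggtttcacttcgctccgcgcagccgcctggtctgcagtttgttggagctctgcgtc
BAX (chr19:48954625-48954924, plus strand): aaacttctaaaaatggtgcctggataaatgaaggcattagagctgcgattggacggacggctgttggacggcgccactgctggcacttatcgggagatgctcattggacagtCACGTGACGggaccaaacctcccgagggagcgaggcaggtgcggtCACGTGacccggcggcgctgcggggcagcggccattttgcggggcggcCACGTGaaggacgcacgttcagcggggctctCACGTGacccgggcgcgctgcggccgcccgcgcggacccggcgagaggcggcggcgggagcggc

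Motifs were searched as exact letters on both strands in the 9 RefSeq windows of 7 members. The composite element bound by CHOP and ATF4 family factors (TGATGNAA, N being any base) had 0 matches in them and is held by 3.62% of all 35116 windows in the table. The AP-1 site (TGACTCA) also had 0 matches, against 4.95% of all windows. BCL2L11 held 1 FOXO site (TGTTTAC), at bases -223 to -217 from the start, a motif in 3.42% of all windows. PMAIP1 and the upstream BMF window each held 1 core of the cAMP response element (TGACG), at bases -55 to -51 and -57 to -53, a motif in 24.6% of all windows. The same letters stood in the windows of BCL2, at bases -225 to -221, and BCL2L1, at bases -201 to -197, which did not pass the test. BAX held 4 E-boxes (CACGTG), the site of the MYC and MAX family and of related factors, at bases -138 to -133, -93 to -88, -45 to -40 and -14 to -9. At least 4 E-boxes are found in 0.0142% of all windows and at least 1 in 7.26%, and the first of these in BAX overlaps its TGACG match. The last 2 motifs were added after the sequences had been read, and a match is a description of letters, not a bound site.

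Of the antiapoptotic genes, BCL2L2 was the member that rose. BCL2L2 (chromosome 14, 23298790 to 23311759, plus strand) had 41.5, 39.0 and 37.3 CPM in depleted libraries and 27.2, 27.1 and 23.9 CPM with asparagine. The groups did not overlap, and the 3 depleted libraries were close to each other. BCL2L2 rose by 0.57 on the log2 scale (SE 0.13, limma adjusted p = 0.00978) and by 1.16 with the GC trend removed (adjusted p = 0.000717), while the adjusted p was 0.0535 without library 3 with asparagine. The read-through gene BCL2L2-PABPN1 shares 19.4% of its exon length on the same strand, and reads there cannot be assigned to 1 of them.

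BCL2 (chromosome 18, 63123346 to 63320128, minus strand), the founding member, had 247, 335 and 343 CPM in depleted libraries and 284, 281 and 310.2 CPM with asparagine. Depleted library 1 was the lowest and libraries 2 and 3 the highest of all 6. Its change was 0.07 on the log2 scale, with a 95% interval of -0.30 to 0.43 (limma adjusted p = 0.735). MCL1 (chromosome 1, 150574551 to 150579738, minus strand), whose short-lived protein is a survival factor of early B cells, had 197, 226 and 247 CPM in depleted libraries and 199.5, 211 and 212 CPM with asparagine. The change of MCL1 was 0.10, with a 95% interval of -0.19 to 0.39 (adjusted p = 0.518). Both passed in opposite directions in other fits. They were higher without depleted library 1, at 0.22 for BCL2 and 0.19 for MCL1 (adjusted p = 0.0134 and 0.0305), and lower after the GC correction, at -0.18 for each (adjusted p = 0.0281 for BCL2 and 0.0254 for MCL1).

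BCL2L1 (chromosome 20, 31664452 to 31723989, minus strand) had 42.2, 28.5 and 26.0 CPM in depleted libraries and 43.9, 46.2 and 41.4 CPM with asparagine. Depleted library 1 lay among the libraries with asparagine and the other two below them. The estimate for all 6 libraries was -0.46 on the log2 scale, with a 95% interval of -0.93 to 0.00466 (limma adjusted p = 0.0873), and it was -0.67 without depleted library 1 (adjusted p = 6.71e-05). With the GC trend removed BCL2L1 was at -0.095 (adjusted p = 0.246). The antisense gene ABALON overlaps 43.0% of the exon length.

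The effectors showed the same split between depleted libraries. BAX (chromosome 19, 48954815 to 48961798, plus strand) had 135, 57.9 and 50.2 CPM in depleted libraries and 114, 126 and 101.2 CPM with asparagine. Depleted library 1 was the highest of all 6 and libraries 2 and 3 the lowest. On the log2 scale BAX differed by -0.62, with a 95% interval of -1.47 to 0.22 (limma adjusted p = 0.180), and by -1.06 without depleted library 1 (adjusted p = 5.92e-06). BAK1 (chromosome 6, 33572547 to 33580293, minus strand) had 24.8, 12.5 and 12.0 CPM in depleted libraries and 24.4, 24.9 and 19.1 CPM with asparagine. BAK1 differed by -0.52, with a 95% interval of -1.19 to 0.16 (adjusted p = 0.164), and by -0.84 without depleted library 1 (adjusted p = 0.000125). After the GC correction the values were -0.09 for BAX and -0.05 for BAK1 (adjusted p = 0.645 and 0.719). With the correction and without depleted library 1, BAX was at -0.29 (adjusted p = 0.00369).

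**Figure D2:**
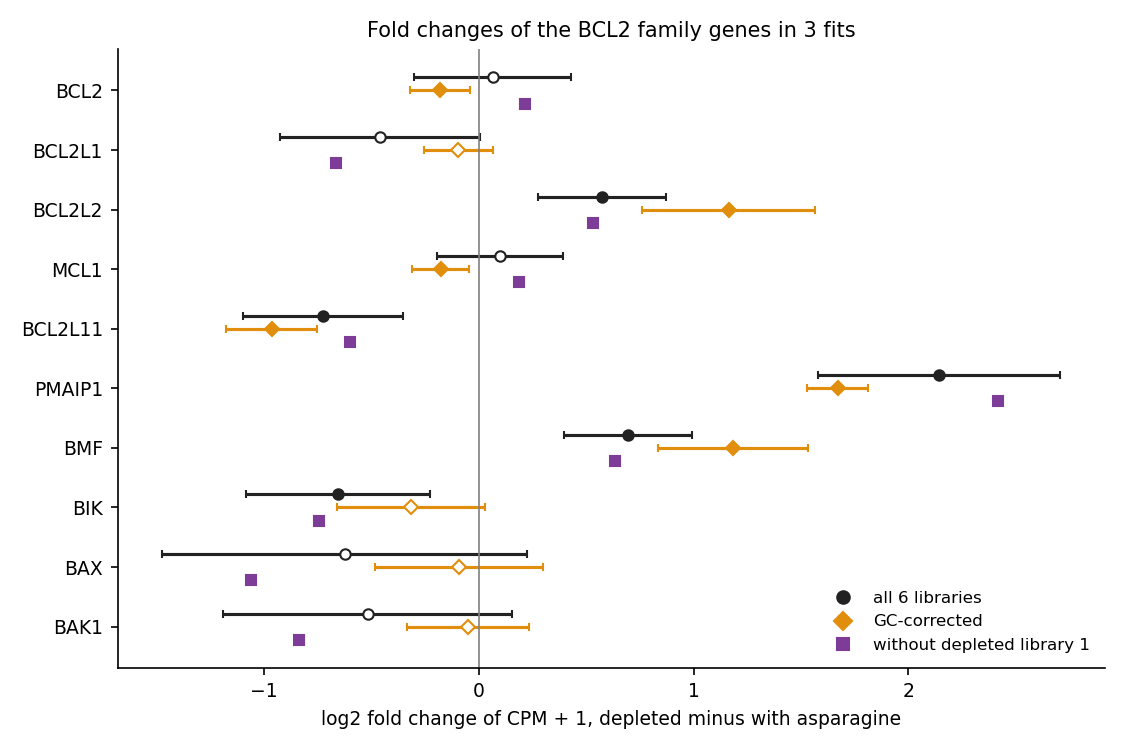
Log2 fold change of CPM + 1, depleted minus with asparagine, for each gene with all 6 libraries (black, 95% interval), after the GC correction (orange, 95% interval) and without depleted library 1 (purple, no interval drawn), with filled symbols where the limma adjusted p is under 0.05. PMAIP1, BMF and BCL2L2 lie right of 0 and BCL2L11 left of 0, with filled symbols, in all 3 fits, while BAX, BAK1 and BCL2L1 are filled only without depleted library 1 and BCL2 and MCL1 change side.

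Set beside genes of like GC content, the members fell into distinct patterns. Genes were put into 5 classes of equal size by the GC content of their transcripts, and each depleted library was compared with the mean with asparagine. BAX, at 60.6% GC, lay in the highest class, whose median was -0.09, -0.86 and -0.89 on the log2 scale in depleted libraries 1, 2 and 3, and BAX itself was at 0.25, -0.96 and -1.16. BAK1, at 58.8% GC, was at 0.12, -0.81 and -0.87, where its class had medians of -0.02, -0.48 and -0.51. BCL2L1 belongs to the class of BAK1 and was at -0.05, -0.60 and -0.73. These 3 genes therefore moved with their class in sign in depleted libraries 2 and 3, and BCL2L1 in library 1 too.

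BMF and BCL2L2 moved against their class. Both belong to the highest GC class, as BAX does, yet BMF was at 0.81, 0.60 and 0.68 and BCL2L2 at 0.65, 0.57 and 0.50 in depleted libraries 1, 2 and 3. BCL2L11 belongs to a class of low GC content with medians of 0.06, 0.43 and 0.44, and was at -0.97, -0.70 and -0.50. BCL2 and MCL1 are in that class as well and lay below its median in each depleted library. PMAIP1, at 41.4% GC, belongs to the lowest class, with medians of 0.03, 0.81 and 0.86, and lay above them at 1.59, 2.40 and 2.44. BIK, in the class of BAK1, was at -0.47, -0.52 and -0.97.

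**Figure D3:**
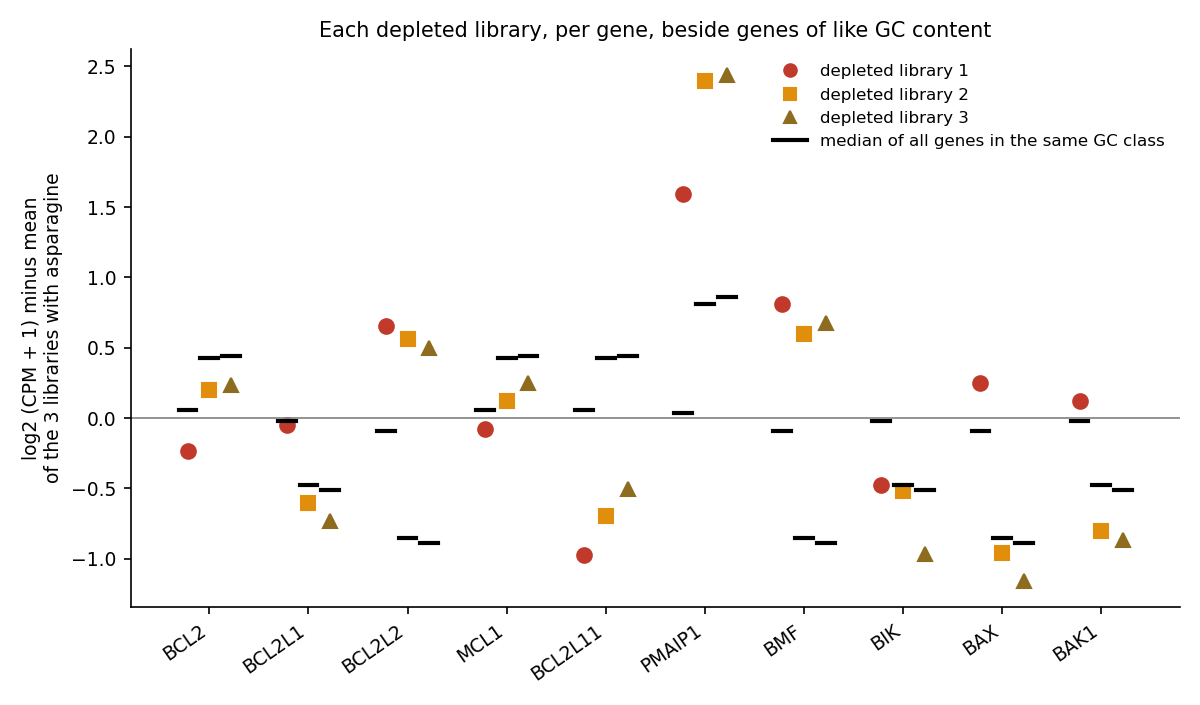
Log2(CPM + 1) of each gene in depleted libraries 1 (circle), 2 (square) and 3 (triangle) minus the mean of the 3 libraries with asparagine, with a black bar for the median of all genes in the same GC class in that library. BMF and BCL2L2 lie above 0 where their class medians lie below it, and BCL2L11 below 0 where its class lies above it.

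Levels of different genes can be compared only per length, so CPM was divided by the merged exon length in kb. In depleted cells PMAIP1 was highest, at 204 ± 60.4 CPM per kb, followed by MCL1 at 51.1 ± 5.78, BAX at 31.3 ± 18.1 and BCL2 at 26.2 ± 4.51 CPM per kb (SD, n = 3). With asparagine MCL1 and PMAIP1 stood at 47.5 ± 1.60 and 44.4 ± 3.43 CPM per kb, BAX at 44.0 ± 4.86 and BCL2 at 24.8 ± 1.37. The depleted range of PMAIP1 did not overlap that of MCL1, the next in order, whereas in cells with asparagine MCL1 overlapped PMAIP1 and PMAIP1 overlapped BAX. The depleted range of BAX overlapped those of MCL1 and BCL2. BAX exceeded BCL2 in depleted library 1, at 52.2 against 21.0 CPM per kb. In depleted libraries 2 and 3 BAX was lower, at 22.4 and 19.4 against 28.5 and 29.1 CPM per kb. Then came BCL2L1, BCL2L2, BMF, BAK1, BCL2L11 and BIK in depleted cells, from 9.73 down to 3.03 CPM per kb. There BCL2L1 overlapped BCL2L2, BCL2L2 overlapped BMF, BMF overlapped BAK1 and BCL2L11 overlapped BIK, but BAK1 did not overlap BCL2L11. With asparagine the order was BCL2L1, BAK1, BCL2L11, BCL2L2, BIK and BMF, from 13.2 to 5.33 CPM per kb, where BCL2L2, BIK and BMF overlapped.

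The make-up of the family RNA differed between the groups. The 4 BH3-only genes made up 49.8%, 66.5% and 67.0% of the summed CPM per kb of the 10 genes in depleted libraries and 29.9%, 28.1% and 31.5% with asparagine. The 4 antiapoptotic genes made up 29.3%, 26.0% and 26.6% in depleted libraries, against 43.4%, 43.6% and 45.2% with asparagine. The effectors made up 20.9%, 7.43% and 6.43% in depleted libraries, against 26.7%, 28.3% and 23.2% with asparagine. PMAIP1 alone accounted for 92.2% ± 2.74 of the sum of these 4 BH3-only genes in depleted cells and 71.4% ± 2.50 with asparagine. BCL2L11 accounted for 1.98% ± 0.315 in depleted cells and 11.4% ± 1.19 with asparagine (SD, n = 3 each). The shares leave out BID, BAD and BBC3, described below. Their mean CPM was 51.9, 25.3 and 32.8 in depleted cells and 200.4, 37.3 and 15.2 with asparagine, so the shares hold only for the chosen genes. Within the antiapoptotic sum the proportions shifted less. MCL1 held 52.9% ± 2.21 of it in depleted cells and 51.8% ± 0.670 with asparagine, and BCL2L2 held 9.78% ± 1.27 in depleted cells and 6.80% ± 0.590 with asparagine. With the longest transcript as length, BAX exceeded MCL1 in the 3 libraries with asparagine and in depleted library 1, at 99.4 against 50.1 CPM per kb, but not in depleted libraries 2 and 3, at 42.6 and 36.9 CPM per kb for BAX and 57.6 and 62.9 for MCL1. These are shares of RNA, and shares of a sum move together when 1 member is large. They come from CPM without the GC correction, after which log2 fold changes were -0.09 for BAX, -0.05 for BAK1 and 1.67 for PMAIP1. The part of the GC trend in the shares was not tested.

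**Figure D4:**
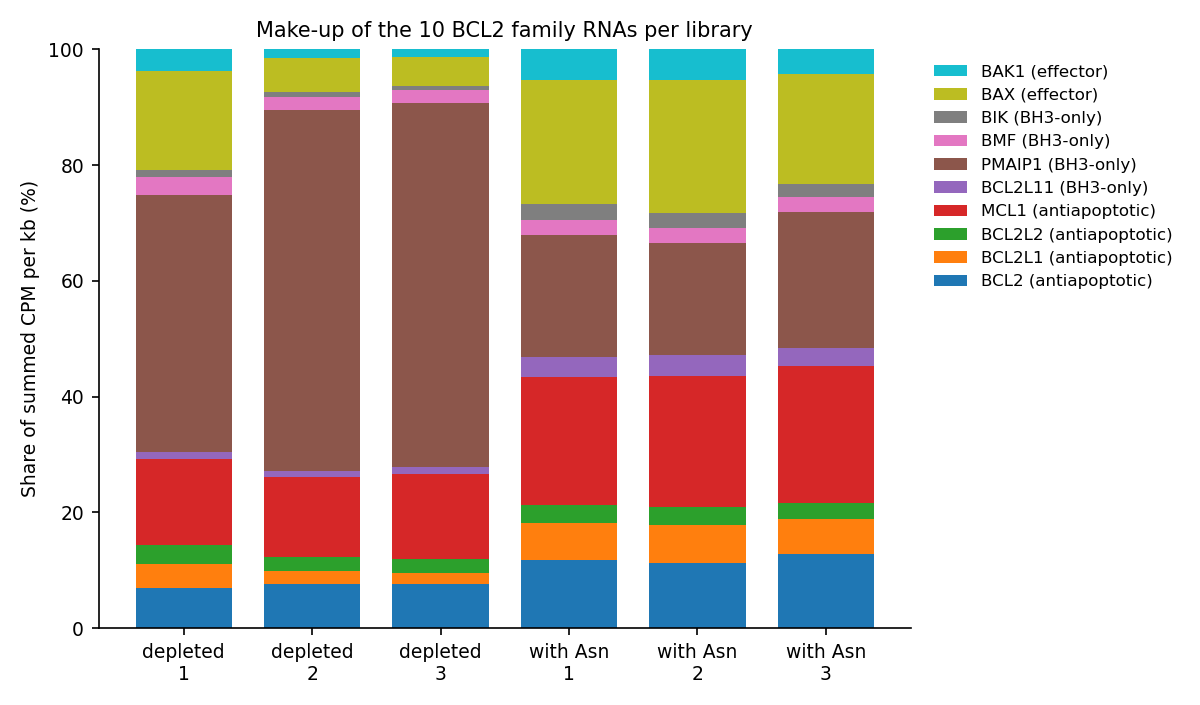
Share of each gene in the summed CPM per kb of the 10 genes, in percent, for the 3 depleted libraries and the 3 with asparagine. The BH3-only genes among these 10 take 49.8% to 67.0% in depleted libraries and 28.1% to 31.5% with asparagine, most of it PMAIP1.

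Ratios of 2 members in the same library do not depend on the scaling between libraries and were given as values with no test. The log2 ratio of PMAIP1 to MCL1, the BH3-only gene and the antiapoptotic partner of its protein, was 0.61, 1.22 and 1.13 in depleted libraries and -1.03, -1.20 and -0.98 with asparagine. PMAIP1 reads per MCL1 read were therefore 4.15-fold higher in depleted cells by the mean of the log ratios. For BCL2L11 to BCL2 the log2 ratio was -3.40, -3.55 and -3.39 in depleted libraries and -2.61, -2.49 and -2.82 with asparagine. This pair of genes has nearly equal GC content, 45.7% and 45.6%, and the difference of -0.81 was -0.78 after the GC correction. BCL2L11 to MCL1 differed by -0.84 and BMF to BCL2 by 0.65, again with no overlap between the groups.

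The ratios that hold an effector or BCL2L1 overlapped between the groups. BAX to BCL2, a ratio often quoted for the balance of death and survival, was -0.87, -2.53 and -2.77 in depleted libraries and -1.31, -1.15 and -1.62 with asparagine. Depleted library 1 had the highest of these log2 ratios and depleted libraries 2 and 3 the lowest. BAK1 to MCL1 was -2.99, -4.17 and -4.37 in depleted libraries and -3.03, -3.09 and -3.47 with asparagine. After the GC correction the difference between the groups was 0.09 for BAX to BCL2 and 0.13 for BAK1 to MCL1, against -0.70 and -0.65 without it.

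**Figure D5:**
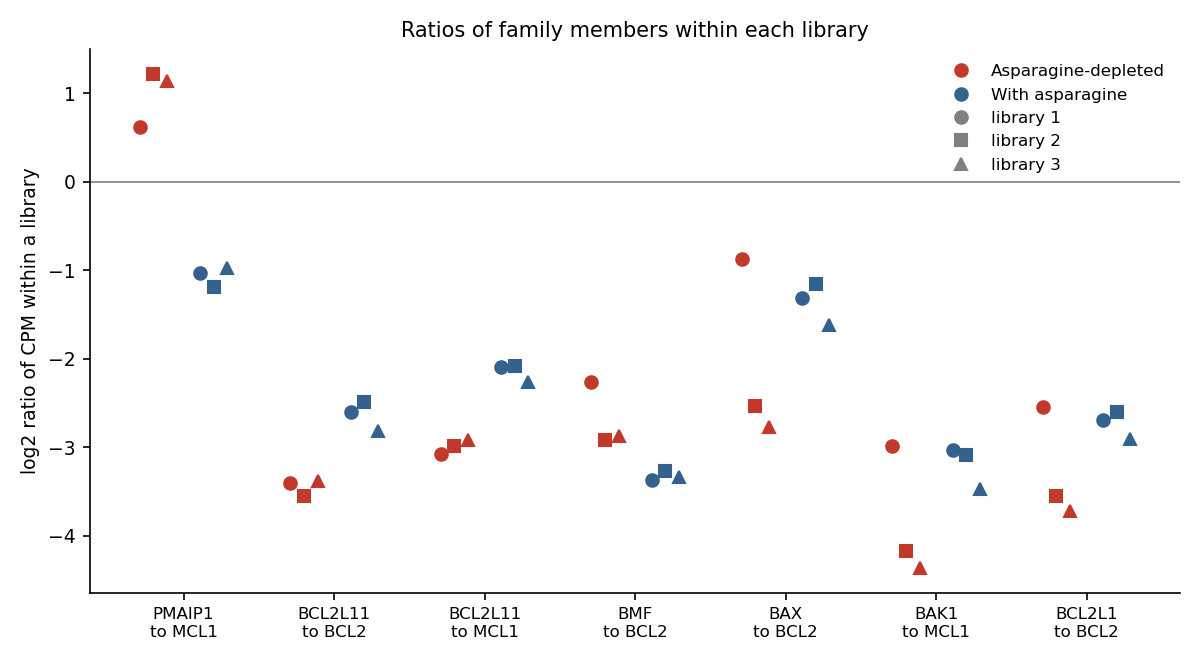
Log2 ratio of the CPM of 2 members within each library, depleted (red) left of with asparagine (blue), with circles, squares and triangles for libraries 1, 2 and 3. PMAIP1 to MCL1 is above 0 in the 3 depleted libraries and below 0 in the 3 with asparagine, whereas BAX to BCL2, BAK1 to MCL1 and BCL2L1 to BCL2 overlap.

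Other proteins related to BCL2 were taken as a list of 13 genes, of which 6 were tested. BNIP3L, a mitophagy receptor, and BCL2L13, an atypical member of the mitochondrial surface, rose, by 2.77-fold and 1.87-fold (log2 fold changes 1.38 and 0.89, limma adjusted p = 0.00426 and 0.00121). BID, which links the death receptors to the mitochondrion once caspase-8 has cut it, fell to 51.9 ± 8.96 CPM, against 200.4 ± 6.62 CPM with asparagine (log2 fold change -1.94, adjusted p = 0.000264). BCL2L12 fell by 1.24 (adjusted p = 0.00978). BBC3, the gene of the BH3-only protein PUMA, had 57.5, 19.7 and 21.2 CPM in depleted libraries and 14.0, 17.0 and 14.6 CPM with asparagine, so depleted library 1 stood far above the rest. Its log2 fold change was 0.89 (adjusted p = 0.0947) and 1.57 with the GC trend removed (adjusted p = 0.00017), and that of BAD, a further BH3-only gene, was -0.66 (adjusted p = 0.135). Without depleted library 1 both passed, BAD at -1.07 (adjusted p = 2.58e-06) and BBC3 at 0.41 (adjusted p = 0.00647), whereas BAD was at 0.05 with the GC trend removed (adjusted p = 0.706). The list's median was 0.11, against 0.01 for all genes, and the others (BCL2A1, BCL2L10, HRK, BOK, BCL2L14, BCL2L15 and BNIP3) were not analysed here.

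For the steps after the membrane is opened, 1 of 11 genes was higher and 7 were lower, where 25.1% and 26.2% of all genes were. The median log2 fold change was -0.52. XIAP, an inhibitor of caspases, rose 2.50-fold to 111 ± 37.5 CPM, against 44.4 ± 5.61 CPM with asparagine (log2 fold change 1.24, limma adjusted p = 0.0103). The mitochondrial channel gene VDAC1 fell by 1.45 (adjusted p = 0.000467), and VDAC2, whose product binds BAK1, by 0.88 (adjusted p = 0.00426). ENDOG, a mitochondrial nuclease, fell by 1.64 (adjusted p = 0.0271) and HTRA2, a mitochondrial protease, by 0.91 (adjusted p = 0.0192). CYCS, AIFM1 and VDAC3 were the other lower genes. The apoptosome genes APAF1 and CASP9 and the IAP antagonist DIABLO did not pass, at 0.44, 0.33 and -0.031. CASP9 passed with the GC trend removed, at 0.64 (adjusted p = 0.000104), and APAF1 without depleted library 1, at 0.65 (adjusted p = 0.000338). XIAP and ENDOG were uneven between depleted libraries. XIAP had 67.8, 127 and 137 CPM in depleted libraries 1, 2 and 3. ENDOG had 66.0, 20.8 and 16.0 CPM there and 90.4, 97.3 and 82.7 CPM with asparagine. After the GC correction the estimate shrank to 0.66 for XIAP, -0.82 for ENDOG and -0.47 for HTRA2. It grew in size to -1.59 for VDAC1 and -1.13 for VDAC2. With the GC trend removed this list had 2 higher and 7 lower genes, where 35.1% and 34.3% of all genes were. Its median was then -0.71.

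Genes for the turnover of the MCL1 protein gave 4 higher and 2 lower of 8 tested, where 25.1% and 26.2% of all genes were. Their median log2 fold change was 0.31. GSK3B, a kinase that marks MCL1 for destruction, rose by 0.88 (limma adjusted p = 0.0154), and the ubiquitin ligase subunits FBXW7 and BTRC by 0.70 and 0.45 (adjusted p = 0.0353 and 0.0301). USP9X, which removes ubiquitin from MCL1 and so acts in the opposite direction, rose by 0.78 (adjusted p = 0.0377). USP13, another such enzyme, and CDC20, an activator of the mitotic ligase, fell by 0.51 and 0.75 (adjusted p = 0.0284 and 0.0259). HUWE1, a large ligase for MCL1, and MARCH5, a mitochondrial one, did not pass, at 0.06 and 0.16, and TRIM17 was not analysed here. MARCH5 passed in opposite directions in other fits, at 0.32 without depleted library 1 (adjusted p = 0.00672) and at -0.44 with the GC trend removed (adjusted p = 0.0324). These 4 increases were of genes with 41.7% to 45.4% GC, where the depleted libraries 2 and 3 were raised as a whole. After the GC correction the increases were 0.60 for GSK3B, 0.39 for FBXW7, 0.32 for USP9X and 0.19 for BTRC. Of these genes 3 remained called, BTRC being lost (limma adjusted p = 0.0678). USP9X had 158, 272 and 283 CPM in depleted libraries 1, 2 and 3 and 138, 112 and 155 CPM with asparagine.

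Transcription factors known to act on BH3-only genes gave 5 higher and 1 lower of 9 tested, where 25.1% and 26.2% of all genes were. Their median log2 fold change was 0.61. JUN, an activator of BCL2L11 in rodent neurons, rose 48.3-fold, ATF3, which acts with ATF4 on PMAIP1, 15.2-fold, DDIT3, the gene of CHOP, 10.4-fold and CEBPB 7.73-fold (limma adjusted p = 5.14e-05, 3.03e-05, 5.17e-05 and 0.000364). FOXO1, of the family that drives BCL2L11 when growth signals stop, rose 1.56-fold (adjusted p = 0.0241). E2F1, which links the cell cycle to death genes, fell to 55.6 ± 17.1 CPM, against 262 ± 22.2 CPM with asparagine (log2 fold change -2.25, adjusted p = 0.000512). ATF4, FOXO3 and FOXO4 did not pass, at 0.24, 0.33 and 0.04. ATF4 and FOXO4 passed with the GC trend removed, at 0.55 and 0.45 (adjusted p = 0.00293 and 0.00315), but were at -0.03 and -0.15 without depleted library 1 (adjusted p = 0.715 and 0.258), where FOXO3 passed at 0.21 (adjusted p = 0.0385).

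Binding partners at the cytoskeleton and the endoplasmic reticulum gave 2 higher and 2 lower of 7 tested, where 25.1% and 26.2% of all genes were. Their median log2 fold change was 0.10. TMBIM6, the gene of BAX inhibitor 1 of the endoplasmic reticulum, rose 2.90-fold to 1431 ± 29.9 CPM, against 494 ± 15.1 CPM with asparagine (limma adjusted p = 0.00013). ITPR1, a calcium channel of that membrane to which BCL2 binds, rose 2.62-fold (adjusted p = 0.0011). DYNLL1, the dynein light chain that holds BIM, fell by 0.86 and BCAP31, a partner of BCL2 and BCL-XL there, by 1.15 (adjusted p = 0.00733 and 0.00385). DYNLL2, which holds BMF, BECN1, an autophagy protein with a BH3 motif, and ITPR2 did not pass, at -0.18, 0.10 and 0.54, and ITPR3 was not analysed here. Without depleted library 1 DYNLL2 passed at -0.24 and ITPR2 at 0.86 (adjusted p = 0.0126 and 0.000677), and DYNLL2 also passed with the GC trend removed, at -0.31 (adjusted p = 0.0217).

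The list counts moved with depleted library 1 and with the GC correction. Without depleted library 1, the other BCL2-related genes gave 3 higher and 3 lower, the steps after membrane opening 2 higher and 7 lower, MCL1 turnover 5 higher and 2 lower, the transcription factors 6 higher and 1 lower, and the binding partners 3 higher and 3 lower. After the GC correction the other BCL2-related genes gave 3 higher and 2 lower, MCL1 turnover 3 higher and 3 lower, the transcription factors 7 higher and 1 lower, and the binding partners 2 higher and 3 lower. Over all genes, 51.3% were called with all 6 libraries, 81.8% without depleted library 1 and 69.5% after the GC correction. More calls were thus made throughout the table in both alternatives. By direction, 40.5% were higher and 41.3% lower without depleted library 1, and 35.1% and 34.3% after the GC correction.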

How the data were processed

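Total RNA was isolated with Trizol and libraries were made by Genewiz, per the labels' protocols. FastQC, STAR and featureCounts (Subread) on GRCh38 were used, per the submitters' processing notes, while the sources used here give no versions, strand setting or scaling. The authors deposited 1 table of normalized CPM, a depth-scaled signal with 11911 genes and 6 columns, and columns were matched to samples by the group and replicate number in their names. In each column 100% of values were whole multiples of 1 step within 1e-06 of a read, which gave the reads quoted. Every gene reached 0.54 CPM in some library.

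The 11892 genes that reached 1 CPM in 3 or more libraries were fitted in R 4.3.3 with limma 3.58.1 on log2(CPM + 1), with group as the only term and the prior variance following intensity, and calls were made at a two-sided Benjamini-Hochberg adjusted p-value of 0.05. Such fold changes understate those of low genes. Values written "-fold" are ratios of mean CPM. Positions, exon lengths and GC content came from GENCODE 29, and 95.5% of genes had a GC value. The GC correction subtracted a lowess trend (span 0.3) per library, fitted to each gene's deviation from its mean over all 6 libraries. It can therefore also remove part of a difference between the groups. A response to depletion that follows GC content and a library effect along GC content cannot be told apart here. Alternatives were 2 other pseudocounts, 2 filters, 3 scalings, no trend, each library left out, a replicate block, the GC correction with and without depleted library 1, and, added after seeing the data, voom weights on the recovered reads. The fit was tested on simulated data with independent noise for each gene. Its calls were made without the GC trend that genes of a library share, so it gives no error rates for these data. The members and lists were chosen with earlier results of these data known, and a few genes of the lists and markers are not reported here. All members are named, and from the lists the 4 passing genes that changed most and averaged 5 CPM or more in either group, or all of a kind with 5 or fewer.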

Additional observations from a re-analysis of the deposited data

How the results depend on the processing

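Of 179 values of the 10 members over 18 alternatives, 160 kept their direction and side of the threshold, 7 lost and 6 gained the call, and 6 changed sign. For the 41 genes of the lists the counts were 647, 55, 21 and 15 of 738. With each library left out in turn, members called ranged from 2 to 5 higher and 0 to 5 lower, all genes from 1728 to 4812 higher and 1814 to 4913 lower, and list genes from 9 to 19 higher and 8 to 16 lower. When depleted library 1 was left out and GC corrected, 4488 genes were higher and 4 members lower. At the 5 CPM filter 1 member was lower, because BIK was not tested. The GC correction moved the ratio of BMF to BCL2 to 1.36 and turned BAK1 to MCL1 to 0.13, and the cause was not tested.

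Sign changes under the GC correction gave -0.18 for BCL2, -0.18 for MCL1, 0.048 for BAD, -0.021 for APAF1, -0.44 for MARCH5 and -0.12 for BECN1. With it and without depleted library 1 they gave -0.13 for BCL2, -0.20 for MCL1, -0.014 for APAF1, -0.57 for MARCH5 and -0.26 for BECN1. With each library left out in turn, BCL2 ranged from -0.018 to 0.22, DIABLO from -0.16 to 0.077, FOXO4 from -0.15 to 0.17 and ATF4 from -0.027 to 0.39. BCL2 was below 0 without depleted library 2 or 3, FOXO4 and ATF4 without depleted library 1, and FOXO4 without library 3 with asparagine. Quantile normalization gave DIABLO 0.032 and FOXO4 -0.064, and trimmed mean rescaling DIABLO 0.0047.

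Deviations of libraries of the same number from their group means correlated at 0.083, -0.645 and 0.686, and those of unlike numbers at -0.742 to 0.713. Deviations of 3 libraries from their mean depend on each other, so these values cannot show whether libraries were paired. With the replicate block 3 members were higher and 2 lower, all genes were 2824 higher and 2989 lower, and list genes 13 higher and 14 lower. The planned edgeR tests were not run, because too few low values remained in the table to check the recovered reads as counts. With 78 to 218 reads per library, BIK is the member that depth limits most.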
